A study of Mus musculus with 16 samples.

Results

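Messenger RNA of 10 genes that code for proteins of the muscle stem cell surface or for secreted proteins was followed over 16 libraries of sorted mouse muscle cells. The genes were Cd34, Vcam1, Chodl, Calcr, Cxcr4, Sdc3 and Sdc4, whose products sit in the plasma membrane, and Chrdl2, Fam132b and Nppc, whose products are secreted. They were taken by gene symbol from files that list 24341 genes each, and all 10 were found once in every file. The set was named for quiescence and chosen by FPKM over the 6 groups, with those levels known, so differences between the groups with and without a suffix are a description of these genes and carry no test. The set is not defined by a difference between genotypes, so those differences are tested, though the levels in p53KO and p53WT groups were known as well.

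The libraries form 6 groups: p53KO_3dai (n = 3), p53WT_3dai (n = 3), p53KO_G2 (n = 2), p53WT_G2 (n = 2), p53KO (n = 3) and p53WT (n = 3). What 3dai and G2 stand for is not written out in the labels, so the suffixes are kept as names. Every group came from C57BL/6 mice aged 2 to 3 months, and the cells were sorted for CD34 and alpha-7 integrin and against CD31, CD11b, CD45 and Sca-1. CD34 protein was therefore required of every cell measured, in each group alike. The 3dai groups came from the tibialis anterior and the G2 groups and those with no suffix from hind limb muscles, so a 3dai difference is also a difference of muscle and the 2 cannot be told apart. A Duchenne model appears in the title of the series, yet no label states a Dmd genotype, and none says how or in which cells p53 was removed.

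Values are FPKM, fragments per length of transcript and per depth of library, so levels can be compared between genes of different length. Trp53, the gene the knockout names, lay at 34.9 to 45.7 FPKM in p53KO_3dai against 134 to 161 in p53WT_3dai, at 16.7 to 19.8 in p53KO_G2 against 59.9 to 71.0 in p53WT_G2, and at 6.34 to 12.2 in p53KO against 39.9 to 53.9 in p53WT. Of the sort markers, Itga7 lay between 81.1 and 317 FPKM over the 16 libraries, and Pecam1, Itgam, Ptprc and Ly6a reached at most 2.09, 0.286, 0.00898 and 6.60. The files do not give the depth of sequencing. Nothing says that replicates are separate animals, so a p here covers the spread between libraries alone, which may be technical. The mean correlation of a library with the others of its group ran from 0.917 to 0.955. The lowest values belonged to both p53KO_G2 libraries, p53KO replicate 3 (0.920) and p53KO_3dai replicate 1 (0.929), and results that turn on one of these are given without it.

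Muscle stem cells rest under the basal lamina of the fibre and are held in quiescence by signals from that niche. They read it through receptors and adhesion proteins such as the calcitonin receptor, VCAM1 and the heparan sulfate carrying syndecans, and they also secrete factors of their own. When the muscle is injured the cells leave quiescence, divide, and rebuild or fuse with fibres, and many transcripts typical of the resting cell are then lost.

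Most of the 10 genes were lowest in 3dai and highest in the groups with no suffix, with G2 between them. For 8 of the 10, every 3dai library lay below every library with no suffix, as was so for 17.5% of the 12954 genes tested. Sdc3 was the exception in direction, with every 3dai library above every library with no suffix in FPKM as deposited (25.7% of all genes). The Cd34 libraries overlapped. For Chodl, Calcr, Sdc4, Chrdl2, Fam132b and Nppc, all 4 G2 libraries lay between those 2 sets, an order that 3.71% of all genes share. Because the genes were picked with these levels known, the shares are a background and nothing is read from them. In bulk RNA, fewer cells that carry a transcript and less transcript per cell cannot be told apart. Together the 10 transcripts made up 0.0471% to 0.0777% of the summed FPKM in 3dai libraries, 0.144% to 0.220% in G2 libraries and 0.710% to 0.989% in libraries with no suffix.

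**Figure D1:**
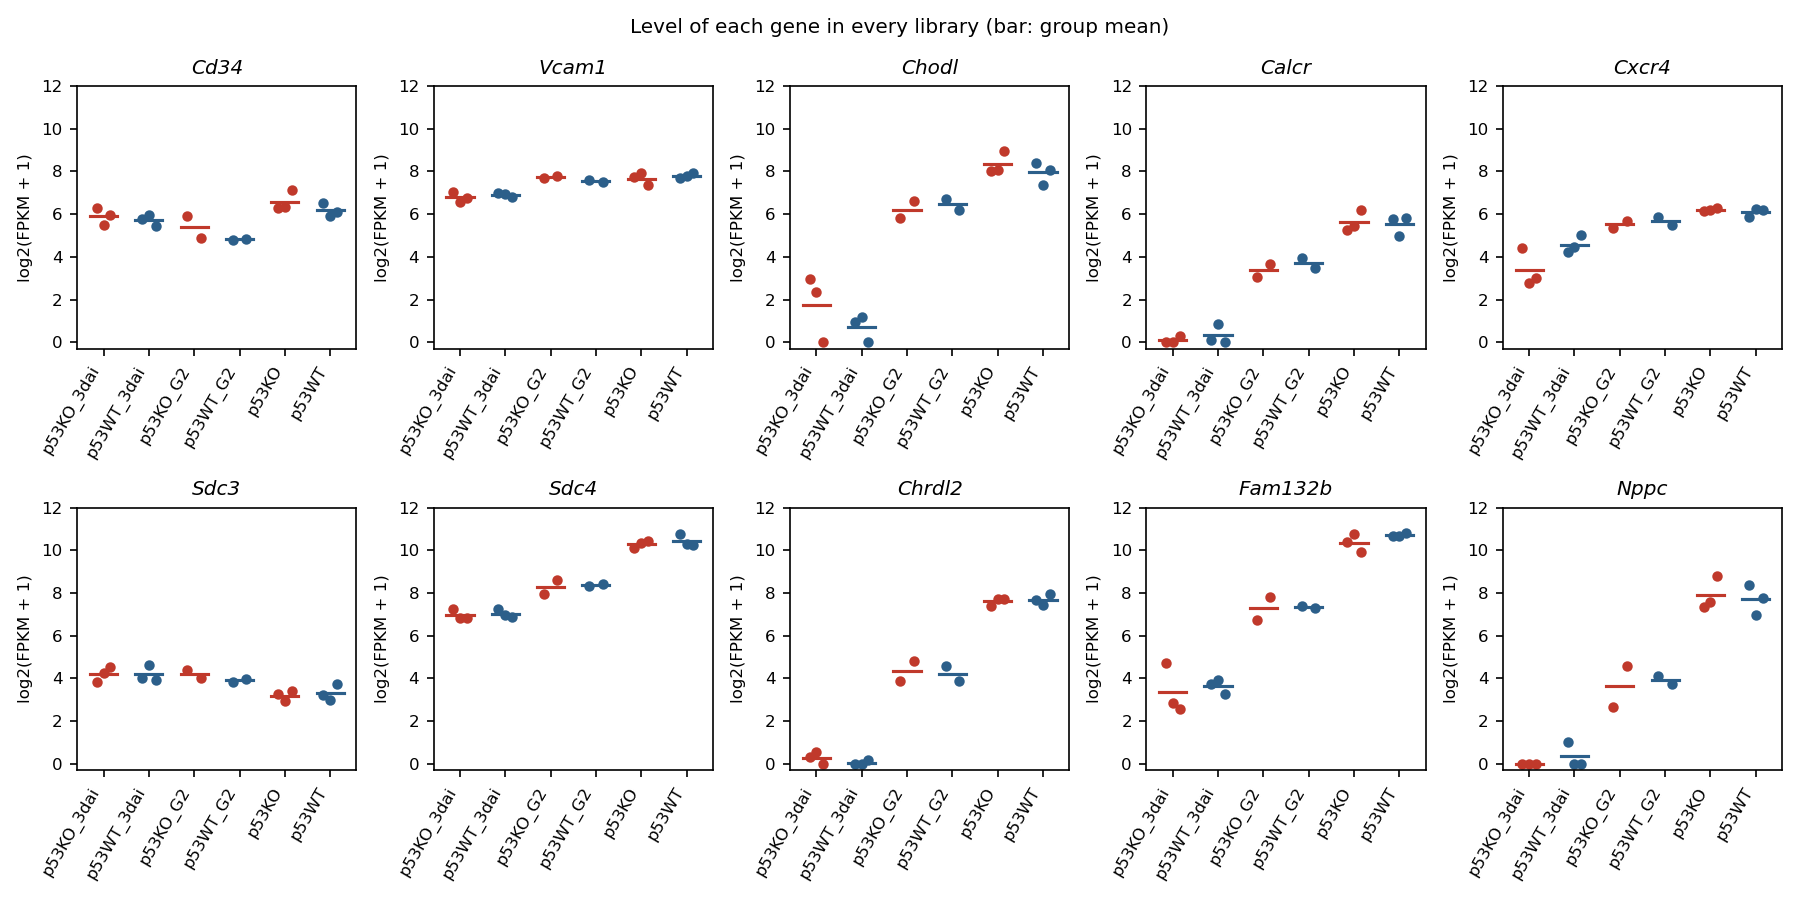
Level of each of the 10 genes as log2(FPKM + 1) on the vertical axis, with 1 point per library and a bar at the group mean; p53KO groups are red and p53WT groups blue. Of the panels, 6 step down from no suffix through G2 to 3dai, Sdc3 is lowest with no suffix, and red and blue points of the same suffix overlap, except in G2 for Cd34, Vcam1 and Sdc3.

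Cd34 codes for a sialomucin, a heavily glycosylated surface protein, and was itself a sort marker (mm10, chr1:194938821-194976959, plus strand). Its FPKM was 77.1, 44.4 and 61.1 in p53KO_3dai and 53.4, 61.6 and 42.7 in p53WT_3dai. In p53KO_G2 it was 58.9 and 28.9 and in p53WT_G2 27.1 and 27.5, and with no suffix 76.5, 78.5 and 140.3 in p53KO and 90.0, 59.3 and 68.5 in p53WT. No Cd34 value lay below 27.1 FPKM, the G2 libraries lay below all those with no suffix, and the 3dai libraries overlapped both sets. Set against no suffix, the difference on the log2(FPKM + 1) scale was -0.66 in p53KO_3dai and -0.45 in p53WT_3dai, and -1.18 in p53KO_G2 and -1.36 in p53WT_G2. Cd34 was the one gene of the 10 whose difference was larger in G2 than in 3dai in both genotypes. Among neighbouring groups in the order of means, only p53KO_G2 and p53WT_G2 did not overlap.

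Vcam1 codes for an adhesion protein of the immunoglobulin family that binds alpha-4 integrins (chr3:116110020-116129688, minus strand). It had 131, 94.5 and 107 FPKM in p53KO_3dai and 126, 122 and 109.5 in p53WT_3dai. The G2 values were 204 and 218 in p53KO_G2 and 196 and 181 in p53WT_G2, and with no suffix Vcam1 had 209.9, 240.2 and 162 in p53KO and 203, 217 and 244 in p53WT. Its mean was thus 1.84-fold lower in p53KO_3dai than in p53KO and 1.86-fold lower in p53WT_3dai than in p53WT, while the G2 libraries overlapped those with no suffix. The G2 difference was 0.06 in p53KO_G2 and -0.23 in p53WT_G2 (log2), and the p53KO value turned to -0.37 under median-of-ratios scaling and to -0.0053 under quantile normalization.

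Chodl codes for chondrolectin, a membrane protein with a C-type lectin domain (chr16:78930948-78951728, plus strand). It was listed at 6.78, 4.08 and 0 FPKM in p53KO_3dai and at 0.960, 1.24 and 0 in p53WT_3dai. In p53KO_G2 it had 55.5 and 96.3 and in p53WT_G2 105 and 71.8 FPKM, and with no suffix it reached 255, 266 and 491 in p53KO and 335, 166 and 271 in p53WT. The 3 pairs of groups formed 3 separate tiers, and within a tier the genotypes overlapped. On the log2(FPKM + 1) scale, where a change toward 0 looks smaller than it is, the Chodl difference was -6.57 between p53KO_3dai and p53KO and -7.24 between p53WT_3dai and p53WT. Its G2 differences were smaller, -2.12 in p53KO_G2 and -1.50 in p53WT_G2.

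Calcr codes for the calcitonin receptor, which signals through cyclic AMP and is known in mouse muscle stem cells for holding them quiescent (chr6:3685720-3764713, minus strand). It was listed at 0.0195, 0 and 0.232 FPKM in p53KO_3dai and at 0.0707, 0.829 and 0 in p53WT_3dai. It had 7.32 and 11.9 FPKM in p53KO_G2 and 14.3 and 10.0 in p53WT_G2, and 36.9, 43.1 and 72.2 in p53KO and 54.5, 30.6 and 55.6 in p53WT. No 3dai library reached 1 FPKM of Calcr, and the G2 means were 5.29-fold lower in p53KO_G2 than in p53KO and 3.85-fold lower in p53WT_G2 than in p53WT. A listed 0 is not taken as absence.

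Cxcr4 codes for the receptor of the chemokine CXCL12 and takes part in the homing and migration of many progenitor cells (chr1:128588199-128592299, minus strand). Its FPKM was 20.5, 5.86 and 7.14 in p53KO_3dai and 17.6, 21.3 and 31.5 in p53WT_3dai. In p53KO_G2 it was 40.2 and 50.01 and in p53WT_G2 57.8 and 43.6, and 69.8, 71.2 and 76.5 in p53KO and 57.5, 74.0 and 72.7 in p53WT. All 3dai libraries lay below all others, and the G2 and no-suffix libraries overlapped by 1 pair, the higher p53WT_G2 library and the lowest p53WT library. Mean Cxcr4 was 6.50-fold lower in p53KO_3dai than in p53KO and 2.90-fold lower in p53WT_3dai than in p53WT; the test of that unequal fall is given with the genotypes.

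The syndecans are transmembrane proteins whose heparan sulfate chains bind growth factors and matrix, and SDC3 and SDC4 are both known on muscle stem cells. Sdc4 (chr2:164424247-164443188, minus strand) had 149.9, 112 and 111 FPKM in p53KO_3dai and 149, 123 and 114 in p53WT_3dai. It had 246 and 390.3 in p53KO_G2 and 319.9 and 341 in p53WT_G2, and 1114, 1310.2 and 1374 in p53KO and 1750.1, 1245 and 1196 in p53WT. Sdc4 formed 3 tiers by suffix, with its mean 10.2-fold lower in p53KO_3dai than in p53KO and 10.9-fold lower in p53WT_3dai than in p53WT. In G2 the mean was 3.98-fold lower in p53KO_G2 and 4.23-fold lower in p53WT_G2.

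Sdc3 (chr4:130792537-130826318, plus strand) went the other way. It had 13.0, 17.9 and 21.8 FPKM in p53KO_3dai and 15.2, 24.1 and 14.1 in p53WT_3dai. In p53KO_G2 it had 20.1 and 14.9 and in p53WT_G2 13.5 and 14.9 FPKM, against 8.52, 6.58 and 9.55 in p53KO and 8.31, 6.88 and 12.6 in p53WT. In FPKM as deposited, the libraries with a suffix all lay above those without, the closest at 13.0 in p53KO_3dai and 12.6 in p53WT. By rank within a library, counted from the most abundant gene, that separation was lost. Sdc3 ranked at 4731 in p53WT replicate 3, ahead of p53KO_3dai replicate 1 (5483) and both p53WT_G2 libraries (5577 and 5342). The group means differed from no suffix by 1.00 in p53KO_3dai, 0.88 in p53WT_3dai, 1.01 in p53KO_G2 and 0.60 in p53WT_G2 on the log2 scale. Each of these differences kept its sign under both scalings, with the smallest, that of p53WT_G2, at 0.20 under median-of-ratios scaling and 0.12 under quantile normalization. The ratio of Sdc4 to Sdc3 within a library was 5.08 to 11.5 in 3dai, 12.2 to 26.1 in G2 and 95.2 to 211 with no suffix. Median-of-ratios scaling, which divides a whole library by a single factor, cannot change that ratio, while quantile normalization can.

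Chrdl2 codes for a secreted relative of chordin that binds bone morphogenetic proteins (chr7:100006404-100034726, plus strand). It was listed at 0.250, 0.466 and 0 FPKM in p53KO_3dai and at 0, 0 and 0.140 in p53WT_3dai. It had 13.8 and 26.9 FPKM in p53KO_G2 and 23.1 and 13.5 in p53WT_G2, and 169, 207 and 208 in p53KO and 204, 171 and 249 in p53WT. In p53WT this was the largest fall of all 12954 genes between 3dai and no suffix, by 7.63 on the log2(FPKM + 1) scale, and in p53KO it fell by 7.31. That rank is of a gene chosen with its levels known and rests on 3dai values near 0 FPKM. Nppc came next in p53WT, at -7.37. The G2 means were 9.58-fold below p53KO in p53KO_G2 and 11.3-fold below p53WT in p53WT_G2.

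Fam132b, named Erfe in RefSeq, codes for erythroferrone, a hormone that lowers hepcidin in the liver and is also known as myonectin (chr1:91366430-91374217, plus strand). It had 25.3, 6.31 and 4.94 FPKM in p53KO_3dai and 12.3, 14.0 and 8.73 in p53WT_3dai. The levels were 107 and 222 in p53KO_G2 and 167 and 154 in p53WT_G2, and 1320.1, 1729.8 and 963 in p53KO and 1643, 1601 and 1800.1 in p53WT. With no suffix Fam132b was the most abundant of the 10 by mean FPKM, ranking 23 to 79 among the 24341 genes of a p53KO library and 16 to 35 in a p53WT library. Its mean was 109.7-fold lower in p53KO_3dai than in p53KO and 144-fold lower in p53WT_3dai than in p53WT, and 8.13-fold lower in p53KO_G2 and 10.5-fold lower in p53WT_G2.

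Nppc codes for the precursor of C-type natriuretic peptide, the ligand of the guanylyl cyclase receptor NPR2 (chr1:86666293-86670573, minus strand). It was listed at 0 in all 3 p53KO_3dai libraries and at 1.06, 0 and 0 FPKM in p53WT_3dai. It had 5.39 and 22.8 FPKM in p53KO_G2 and 16.3 and 12.4 in p53WT_G2, and 162, 188 and 437 in p53KO and 329, 126 and 219.8 in p53WT. In G2 the mean was 18.6-fold lower in p53KO_G2 than in p53KO and 15.7-fold lower in p53WT_G2 than in p53WT, the largest of the 10 in that state. In p53KO the 3dai difference of Nppc, -7.89 on the log2(FPKM + 1) scale, ranked first among all 12954 genes. As for Chrdl2, that rank is of a chosen gene and rests on 3dai values listed at 0.

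The sequences before the start sites of Chodl, Calcr, Fam132b and Nppc are shown because these are 4 of the 6 genes with the largest 3dai differences, a receptor, a lectin and a pair of secreted signals. RefSeq's table for GRCm38.p6 matched 8 of the 10 genes, all but Vcam1 and Chrdl2, and the 250 bases before the start are given 5′ to 3′ on the coding strand. Capitals mark matches, on either strand, to TGGGAA (the core bound by RBPJ, the DNA-binding factor of Notch signalling), TGANTCA (AP-1), TGACG (part of the cyclic AMP response element), CAGCTG (an E-box of the kind myogenic factors bind), GGGCGG (GC box) and TATAAA, the core of many promoters read by the TATA-binding protein.
Chodl, chr16:78930698-78930947, plus strand: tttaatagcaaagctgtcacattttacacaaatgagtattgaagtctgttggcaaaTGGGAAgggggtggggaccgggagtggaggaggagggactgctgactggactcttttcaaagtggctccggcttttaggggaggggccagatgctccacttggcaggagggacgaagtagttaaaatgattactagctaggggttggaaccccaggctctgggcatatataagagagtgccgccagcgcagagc
Calcr, chr6:3764714-3764963, minus strand: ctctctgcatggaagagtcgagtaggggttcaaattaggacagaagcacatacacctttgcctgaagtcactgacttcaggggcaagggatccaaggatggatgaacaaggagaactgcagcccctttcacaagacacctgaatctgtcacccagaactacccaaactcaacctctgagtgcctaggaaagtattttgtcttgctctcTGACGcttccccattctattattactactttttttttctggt
Fam132b, chr1:91366180-91366429, plus strand: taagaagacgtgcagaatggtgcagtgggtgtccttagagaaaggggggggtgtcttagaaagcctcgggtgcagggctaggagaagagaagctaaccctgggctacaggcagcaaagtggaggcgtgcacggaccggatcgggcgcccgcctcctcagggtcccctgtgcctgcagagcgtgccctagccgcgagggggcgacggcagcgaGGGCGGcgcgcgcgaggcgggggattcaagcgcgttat
Nppc, chr1:86670574-86670823, minus strand: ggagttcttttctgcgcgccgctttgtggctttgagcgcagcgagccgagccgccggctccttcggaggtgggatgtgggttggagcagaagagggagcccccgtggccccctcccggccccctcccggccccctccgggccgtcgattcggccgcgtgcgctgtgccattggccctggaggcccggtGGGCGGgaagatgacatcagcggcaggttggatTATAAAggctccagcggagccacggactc

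The TGGGAA core was found before 1 of the 8 genes, Chodl, and in 21.6% of all 32851 windows of the same length. TGACG stood before Calcr and Sdc3 (17.8% of all windows), and TATAAA before Cxcr4 and Nppc (12.4%), where in Cxcr4 matches on both strands overlap. A GC box stood before 6 of the 8, all but Cd34 and Chodl, and in 6 of the 9 windows of these genes, against 32.7% of all windows. The 6 windows held 61.2% (Cxcr4) to 76.4% (Sdc3) G and C, against a median of 52.4% over all windows. For Calcr that box lay in the window of its other start, which is not shown and was not matched to the beginning of an annotated transcript. No window of the 8 held TGANTCA or CAGCTG, which 6.75% and 13.0% of all windows hold. Of the 2 starts listed for Calcr, the shown one meets the upper end of the deposited locus; a match is a stretch of letters and not a binding site.

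Seen together, the median difference of the 10 genes was -4.44 in p53KO_3dai against p53KO and -4.31 in p53WT_3dai against p53WT, beside medians over all genes of 0.14 and 0.23. In G2 it was -2.07 in p53KO_G2 and -1.66 in p53WT_G2, beside 0.31 and 0.33. Of the 10 genes, 6, namely Chodl, Calcr, Sdc4, Chrdl2, Fam132b and Nppc, were at least 8-fold lower on that scale in 3dai in both genotypes, as were 3.40% of all genes in p53KO and 3.17% in p53WT. Median-of-ratios scaling moved the medians of all genes to -0.09 in p53KO_3dai, -0.06 in p53WT_3dai, -0.03 in p53KO_G2 and 0.00 in p53WT_G2, and the signs of the 10 genes stayed as given apart from Vcam1 in p53KO_G2. Over the 16 libraries the 6 genes of the large falls followed each other closely, with Pearson r from 0.922 (Chodl and Sdc4) to 0.991 (Sdc4 and Nppc). Cd34 had r between 0.062 (with Vcam1) and 0.454 (with Sdc4) with the 8 genes other than Sdc3, and Sdc3 had r from -0.843 to -0.405 with the other 9. The libraries share their state, so these values describe the pattern over states.

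**Figure D2:**
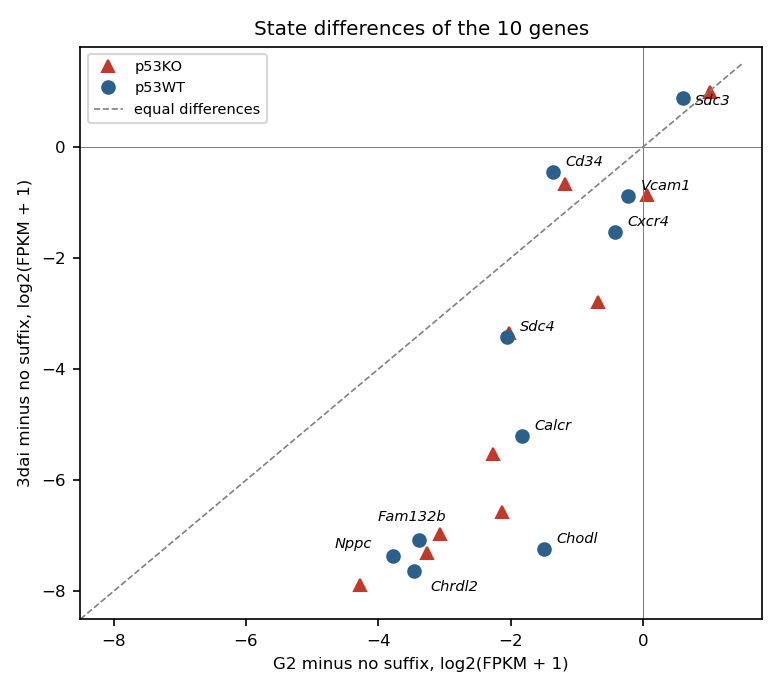
Difference of group means of log2(FPKM + 1) for each of the 10 genes, G2 minus no suffix on the horizontal and 3dai minus no suffix on the vertical axis, with p53KO as red triangles and p53WT as blue circles. Points below the dashed line had a lower value in 3dai than in G2; Cd34 lies above the line in both genotypes, and Sdc3 is the one gene above 0 on the vertical axis, at 1.00 in p53KO, just below the line (1.01 in G2), and 0.88 in p53WT.

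Of 10 transcripts listed for muscle stem cells, the summed FPKM was 595 to 687 in 3dai, 994 to 1347 in G2 and 2043 to 3123 with no suffix. Vcam1, Cd34, Calcr, Sdc4 and Chodl are on that list, so the sum partly repeats their levels given above. Sdc4 alone made up 53.7% of it with no suffix and 27.6% in G2. The largest part in 3dai was Itga7 (32.1%), which was higher there than with no suffix. Its mean FPKM was 208 in p53KO_3dai and 196 in p53WT_3dai, against 85.7 in p53KO and 90.1 in p53WT. Like the stem cell sum, markers of other cell types summed to less in every 3dai library than in any with no suffix. Haematopoietic markers were the exception, as their ranges overlapped. The summed FPKM of 7 Schwann cell markers was 16.4 to 59.4 in 3dai, 181 to 222 in G2 and 545 to 661 with no suffix, and that of 7 fibro-adipogenic markers 1.27 to 17.2, 106 to 121 and 281 to 409. For pericyte and smooth muscle markers, 7 in all, the sums were 19.7 to 56.4, 465 to 984 and 511 to 1672, and for 7 tenocyte markers 36.0 to 85.8, 230.3 to 543 and 224 to 442. The largest part of the pericyte sum was Acta2 in 3dai (65.0%) and G2 (44.5%) and Tagln with no suffix (44.0%). In the tenocyte sum it was Scx in 3dai (75.0%) and Thbs4 in G2 (65.4%) and with no suffix (56.5%). Endothelial markers, also 7, summed to 0.281 to 2.87 in 3dai, 4.88 to 13.1 in G2 and 17.5 to 27.1 with no suffix, with Pecam1 and Kdr at 0 in every 3dai library. Tek alone made up 67.5% of the endothelial sum with no suffix and 44.2% in G2, and 2 of the 7 genes reached a mean of 1 FPKM with no suffix. Haematopoietic markers summed to 2.02 to 9.52, 5.79 to 20.1 and 4.74 to 27.4, with Csf1r at 0 in every library and Ptprc at 0 in every 3dai and G2 library. Most of the fibro-adipogenic sum with no suffix was Dpt (89.5%), Pi16 was at 0 in every 3dai library, and so was Kcnj8 of the pericyte list. Ly6a, the largest part of the fibro-adipogenic sum in 3dai (31.2%), went against that sum. Its mean was 2.40 FPKM in p53KO_3dai and 3.65 in p53WT_3dai, against 0.180 in p53KO and 0.930 in p53WT, with overlapping libraries. The sum of 6 genes of dividing cells ran the other way, with 653 to 885 in 3dai, 233 to 433 in G2 and 1.71 to 9.70 with no suffix. Genes of differentiating muscle, 5 of 7 of them in the files, summed to 28.7 to 98.2 in 3dai, 399.7 to 1291 in G2 and 15.9 to 70.7 with no suffix. The part of these markers in the levels of the 10 genes was not tested.

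Partners of the 10 genes were followed by lists of their families and pathways, with limma, p-values adjusted over all 12954 genes by the Benjamini-Hochberg method and a limit of 0.05. Of all genes tested, 30.4% were called higher and 22.7% lower in p53KO_3dai against p53KO, and 31.8% and 20.9% in p53WT_3dai against p53WT. The shares were 22.5% and 7.06% in p53KO_G2 against p53KO and 22.1% and 5.39% in p53WT_G2 against p53WT. That split depends on the scaling: of the calls, 57.2% were higher in p53KO_3dai, 60.4% in p53WT_3dai, 76.1% in p53KO_G2 and 80.4% in p53WT_G2, and with median-of-ratios scaling 45.0%, 46.1%, 49.2% and 51.9%. Quantile normalization gave 52.1%, 51.1%, 51.3% and 52.4%.

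Around the syndecans, 7 of 8 relatives passed the filter on low values, and in 3dai 1 was called higher and 2 lower in p53KO and 4 and 2 in p53WT (medians 0.35 and 0.63). In G2, 3 were called higher in p53KO and 5 in p53WT and none lower, with medians of 0.97 and 1.37. Median-of-ratios scaling left 1 higher in p53KO_G2 and 3 in p53WT_G2, quantile normalization 2 and 4, and both left 2 higher in p53WT_3dai. The medians stayed above 0, but that of p53KO_3dai came to 0.026 and 0.016. The glypican Gpc1, a heparan sulfate proteoglycan anchored by a lipid, rose to 187 ± 41 FPKM in p53KO_3dai (SD, n = 3) and 221 ± 20 in p53WT_3dai, against 57.1 ± 11.2 in p53KO and 58.2 ± 13.4 in p53WT (log2 difference 1.69 and 1.93, limma adjusted p = 6.7e-06 and 1.79e-06). Gpc3 fell in 3dai (log2 -2.21 in p53KO and -1.36 in p53WT, limma adjusted p = 7.02e-05 and 0.0038), and rose in p53WT_G2 by 1.71 (adjusted p = 0.00407). Gpc2 was low, at most 10.9 FPKM, and was called in p53WT_3dai (1.90, limma adjusted p = 0.00958) but not in p53KO_3dai (1.33, adjusted p = 0.0571).

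Of 18 enzymes that build or trim heparan sulfate 17 passed, and 1 was called higher and 5 lower in p53KO_3dai, and 3 and 5 in p53WT_3dai (medians -0.26 and -0.0021). In G2 2 were called higher and 1 lower in p53KO_G2, and 3 and 2 in p53WT_G2, but the balance turned under scaling, to 0 and 2 and to 2 and 4 with median-of-ratios scaling and to 0 and 2 and to 2 and 3 with quantile normalization. In p53WT_3dai the scalings gave 1 and 6, and 1 and 5. Sulf1, which removes sulfate groups from the chains, fell to 9.90 ± 2.62 FPKM in p53KO_3dai and 8.77 ± 0.76 in p53WT_3dai, against 128 ± 28 in p53KO and 142 ± 25 in p53WT (SD, n = 3 each; log2 -3.57 and -3.86, limma adjusted p = 5.73e-09 and 2.72e-09). Ndst1, which starts sulfation, fell (log2 -1.54 in p53KO_3dai and -1.99 in p53WT_3dai, limma adjusted p = 0.000549 and 5.75e-05). B4galt7, which builds the linker of the chain, rose by 1.07 in p53KO_3dai and by 2.76 in p53WT_3dai (limma adjusted p = 0.0312 and 2.85e-05), and the p53KO call was lost under both scalings.

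For the calcitonin receptor, 19 of 20 pathway genes passed the filter, and 3 were called higher and 9 lower in p53KO_3dai, and 4 and 9 in p53WT_3dai (medians -0.82 and -0.87). In G2 2 were called higher and 4 lower in p53KO_G2, and 4 and 3 in p53WT_G2, where the balance turned to 3 and 6 with median-of-ratios scaling and to 2 and 4 with quantile normalization. In p53WT_3dai both scalings gave 1 higher and 11 lower. Pde4b, which breaks down the cyclic AMP that CALCR raises, fell: it had 17.8 ± 4.9 FPKM in p53KO_3dai and 21.3 ± 1.7 in p53WT_3dai, against 439 ± 42 in p53KO and 463 ± 75 in p53WT (SD, n = 3 each; log2 -4.58 and -4.37, limma adjusted p = 1.13e-09 and 1.7e-09). Calcrl, the related receptor of adrenomedullin, fell (log2 -2.88 in p53KO_3dai and -2.60 in p53WT_3dai, limma adjusted p = 4.56e-05 and 0.000119). Adm, the adrenomedullin gene, fell (log2 -2.55 in p53KO_3dai and -2.85 in p53WT_3dai, limma adjusted p = 0.00383 and 0.00169).

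Around Cxcr4, 12 of 15 genes passed, with 6 called higher and 4 lower in p53KO_3dai, and 5 and 4 in p53WT_3dai; with median-of-ratios scaling the counts were 4 and 5, and 3 and 5. The medians of 0.33 and 0.24 turned to -0.0063 and -0.14 with it. In G2 2 were called higher and 4 lower in p53KO_G2, and 2 and 2 in p53WT_G2, where median-of-ratios scaling gave 1 and 4 and quantile normalization 2 and 4. Rgs2, a brake on G protein signalling, fell (log2 -3.81 in p53KO_3dai and -3.10 in p53WT_3dai, limma adjusted p = 3.22e-08 and 2.85e-07), and Arrb1, which codes for an arrestin that uncouples receptors, fell (log2 -2.65 in p53KO_3dai and -2.14 in p53WT_3dai, adjusted p = 1.36e-05 and 0.000107). Mif, whose product is another ligand of CXCR4, rose to 531 ± 42 FPKM in p53KO_3dai and 498 ± 77 in p53WT_3dai, against 114 ± 18 in p53KO and 101 ± 34 in p53WT (SD, n = 3 each; log2 2.21 and 2.34, limma adjusted p = 1.06e-06 and 6.13e-07).

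Of 12 genes of the natriuretic peptide pathway beside Nppc, 8 passed, and 5 were called lower and 1 higher in p53KO_3dai, and 4 and 1 in p53WT_3dai (medians -0.81 and -0.79). In G2 2 were called lower and 1 higher in each genotype. Npr2, the receptor of the Nppc product, had 3.13 ± 1.20 FPKM in p53KO_3dai and 2.66 ± 0.57 in p53WT_3dai, against 19.2 ± 5.5 in p53KO and 17.8 ± 1.4 in p53WT (SD, n = 3 each; log2 -2.30 and -2.37, limma adjusted p = 1.44e-05 and 1.12e-05). Pde3a, a phosphodiesterase inhibited by cyclic GMP, fell (log2 -3.68 in p53KO_3dai and -3.55 in p53WT_3dai, limma adjusted p = 4.16e-07 and 6.31e-07). The exception was Prkg2, a kinase driven by cyclic GMP, which rose by 2.53 in p53KO_3dai and by 2.21 in p53WT_3dai (limma adjusted p = 0.000323 and 0.001).

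With Vcam1, 11 of 13 adhesion partners passed, and 3 were called higher and 3 lower in p53KO_3dai, and 4 and 4 in p53WT_3dai, where median-of-ratios scaling gave 1 and 5 (medians 0.38 in p53KO and 0.01 in p53WT, which that scaling turned to -0.39). In G2 2 were called higher and 1 lower in p53KO_G2, and 1 and 0 in p53WT_G2; both scalings turned the p53KO_G2 count to 0 higher and 2 lower. Icam1 and Mcam, both surface proteins of the same family as VCAM1, fell (Icam1 log2 -3.66 in p53KO_3dai and -2.59 in p53WT_3dai, limma adjusted p = 4.57e-05 and 0.000933; Mcam -3.19 and -2.72, adjusted p = 0.000161 and 0.000648). Ezr, which ties membrane proteins to actin, rose by 1.61 in p53KO_3dai and by 1.51 in p53WT_3dai (limma adjusted p = 5.63e-05 and 9.9e-05). Near Cd34 and Chodl, 7 of 9 relatives passed, with 1 called higher and 2 lower in p53KO_3dai and 2 and 3 in p53WT_3dai (medians 0.09 and 0.10). In G2 2 were called higher and 1 lower in p53KO_G2, and 1 and 0 in p53WT_G2; under both scalings these became 1 and 2, and 1 and 1, and the 3dai medians fell below 0. Thbd, a surface protein with a C-type lectin domain as in CHODL, fell (log2 -4.78 in p53KO_3dai and -3.98 in p53WT_3dai, limma adjusted p = 5.47e-06 and 3.41e-05). Podxl2, of the CD34 family, fell (log2 -2.78 in p53KO_3dai and -2.63 in p53WT_3dai, limma adjusted p = 0.000309 and 0.000502), and Layn, another lectin-domain protein, rose in G2 by 3.82 in p53KO_G2 and by 3.28 in p53WT_G2 (limma adjusted p = 9.52e-05 and 0.000351).

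The bone morphogenetic protein ligands and antagonists listed with Chrdl2 were called in 1 direction in 3dai: of 17 genes 13 passed, and 10 were called lower in p53KO_3dai and 8 in p53WT_3dai (medians -1.60 and -1.36), with 0 called higher as deposited or under either scaling. In G2 3 were called lower in each genotype and 0 higher. Bmp6 and Bmp4, ligands of the kind CHRDL2 binds, both fell. Bmp6 differed by log2 -5.18 in p53KO_3dai and -4.97 in p53WT_3dai (limma adjusted p = 1.69e-07 and 2.91e-07), and Bmp4 by -5.00 and -3.59 (adjusted p = 1.91e-09 and 4.86e-08). Fstl1, a secreted glycoprotein of the follistatin family, fell in 3dai (log2 -2.89 in p53KO and -2.59 in p53WT, limma adjusted p = 3.51e-09 and 9.95e-09); in G2 it was not called, with 103 ± 8 FPKM in p53KO_G2 and 93.6 ± 2.5 in p53WT_G2 (SD, n = 2 each), against 98.5 ± 16.8 in p53KO and 83.2 ± 4.2 in p53WT (n = 3 each).

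Of the relatives of Fam132b and the iron hormones, 12 of 16 passed, and 7 were called lower and 1 higher in 3dai in each genotype (medians -1.51 in p53KO and -1.64 in p53WT). In G2 3 were called higher and 1 lower in p53KO_G2, and 4 and 2 in p53WT_G2, where medians of 0.01 and 0.28 turned to -0.25 and -0.10 with median-of-ratios scaling and the counts to 2 and 2 in each genotype. C1qtnf3, which codes for a secreted protein of the same C1q and tumour necrosis factor family, went against Fam132b in G2, where it rose: it had 288 ± 24 FPKM in p53KO_G2 and 291 ± 29 in p53WT_G2 (SD, n = 2 each), against 59.9 ± 10.2 in p53KO and 58.3 ± 21.4 in p53WT (n = 3 each; log2 2.26 and 2.35, limma adjusted p = 1.84e-05 and 1.17e-05). In 3dai it fell, as the Fam132b level did (log2 -2.47 in p53KO_3dai and -2.27 in p53WT_3dai, limma adjusted p = 5.25e-07 and 1.24e-06). C1qtnf1 and C1qtnf5, of the same family, fell in 3dai as well, C1qtnf1 by log2 -2.65 in p53KO_3dai and -2.69 in p53WT_3dai (limma adjusted p = 4.2e-05 and 3.62e-05) and C1qtnf5 by -2.84 and -1.99 (adjusted p = 3.59e-05 and 0.000838).

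Genes whose pattern was most like each of the 10 were taken as the 2 with the highest Pearson r of log2(FPKM + 1) over the 16 libraries, among 9558 genes, and r is given as a description. Nppc and Sdc4 shared the same pair, Edn3 (r = 0.994 and 0.992) and Pde4b (r = 0.991 and 0.992). Chrdl2 was followed by Errfi1 (0.994) and Gpx3 (0.992), and Fam132b by Gpx3 (0.994) and Asb5 (0.993). For Calcr they were Rora and Dusp1 (both 0.989), and for Vcam1 Samd4 (0.984) and Hk2 (0.976). Of the pair for Chodl, Cp had r = 0.988, and of the pair for Cxcr4, Elf1 had r = 0.979. Sdc3 was nearest to Rptor (0.930) and Sympk (0.922). Cd34 had the weakest pair, Actg1 (0.827) and Gbe1 (0.820).

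The p53 knockout was read from p53KO minus p53WT within each state. Trp53 RNA differed by log2 -1.80 in 3dai, -1.78 in G2 and -2.37 with no suffix, and some remained in every p53KO library (at least 6.34 FPKM). Between genotypes none of the 10 genes was called by limma in 3dai, in G2 or with no suffix, where 0.0849%, 0.0695% and 0.00772% of the 12954 genes were called. At an unadjusted p under 0.05 there was 1 of the 10 in 3dai (Cxcr4), beside 1151 genes in all, and 0 in G2 and with no suffix, beside 631 and 512. Over the mean of the 3 states 0 of the 10 were called (0.0386% of all genes), with 0 at an unadjusted p under 0.05, beside 749. Libraries of p53KO_G2 and p53WT_G2 did not overlap for Cd34, Vcam1 and Sdc3, each higher in p53KO_G2, which with 2 libraries a group is so for 31.2% of all genes. In 3dai and with no suffix the libraries of the genotypes overlapped for all 10, where 12% and 6.73% of all genes did not overlap.

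The 10 genotype differences lay between -1.16 (Cxcr4) and 1.06 (Chodl) in 3dai, between -0.33 (Calcr) and 0.58 (Cd34) in G2, and between -0.37 (Fam132b) and 0.40 (Cd34) with no suffix, on the log2(FPKM + 1) scale. That of Calcr in G2 was -0.012 without p53KO_G2 replicate 1 and -0.64 without replicate 2. With no suffix that of Fam132b was -0.15 without p53KO replicate 3 and -0.57 without replicate 2. The half-width of the 95% interval of a single difference ran from 0.36 (Vcam1) to 1.23 (Chodl) in 3dai and with no suffix, and from 0.44 to 1.51 in G2, so a call that was missed does not show that the genotypes were alike. Averaged over the states, the Cd34 difference was 0.39 (SE 0.18, 95% interval -0.0032 to 0.78, limma adjusted p = 0.827). Its group means were 60.9 FPKM in p53KO_3dai against 52.6 in p53WT_3dai, 43.9 in p53KO_G2 against 27.3 in p53WT_G2 and 98.4 in p53KO against 72.6 in p53WT, but the G2 difference of 0.58 was 0.08 without p53KO_G2 replicate 1 and 1.08 without replicate 2, and the no-suffix difference of 0.40 was 0.12 without p53KO replicate 3. Chodl, at 1.06 in 3dai (SE 0.58, 95% interval -0.18 to 2.29, limma adjusted p = 0.629), was at 0.46 without p53KO_3dai replicate 1 and at 1.94 without replicate 3, in which it is listed at 0, and was called in neither fit. The mean difference of Vcam1 was -0.03 (95% interval -0.25 to 0.20) and that of Sdc4 -0.09 (95% interval -0.37 to 0.18).

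Cxcr4 had the largest genotype difference. Its mean was 11.2 ± 8.1 FPKM in p53KO_3dai and 23.5 ± 7.2 in p53WT_3dai (SD, n = 3 each), a log2 difference of -1.16 (SE 0.33, 95% interval -1.88 to -0.45, limma adjusted p = 0.280), with p53KO_3dai replicates 2 and 3 below every p53WT_3dai library and replicate 1 among them. With no suffix the means were 72.5 ± 3.5 in p53KO and 68.0 ± 9.2 in p53WT. The interaction, the genotype difference in 3dai minus that with no suffix, was -1.26 (SE 0.47, limma adjusted p = 0.820), and 0 of the 10 and 0 of the 12954 genes were called in it (0%), with 777 at an unadjusted p under 0.05. Without p53KO_3dai replicate 1 the difference in 3dai was -1.67 and the interaction -1.77, both called (limma adjusted p = 0.00097 and 0.0128), on 2 libraries of that group; 512 of the 12954 genes were then called between the genotypes in 3dai, and 146 in the interaction. In that replicate Schwann cell markers summed to 59.4 FPKM against 17.6 and 16.4 in the other p53KO_3dai libraries, and pericyte and smooth muscle markers to 56.4 against 22.7 and 19.7. Tenocyte markers (73.1 against 37.6 and 36.0) and endothelial markers (1.82 against 0.281 and 1.16) were also highest there. Haematopoietic markers (2.02 against 9.52 and 8.18) and dividing-cell genes (731 against 885 and 851) were lowest there. Fibro-adipogenic markers lay between the others (12.4 against 17.2 and 1.27). The part of these markers in the Cxcr4 level was not tested. For G2 the interaction was called for 0.0232% of genes and 0 of the 10, of which 0 had an unadjusted p under 0.05, beside 564 genes in all. Of the 152 tested genes on the partner lists and on 2 wider lists of stem cell genes, 0 were called by limma between genotypes in 3dai, in G2 or with no suffix, with 12, 3 and 12 at an unadjusted p under 0.05. Of all 12954 genes, 0.0849%, 0.0695% and 0.00772% were called, and 1151, 631 and 512 had an unadjusted p under 0.05.

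**Figure D3:**
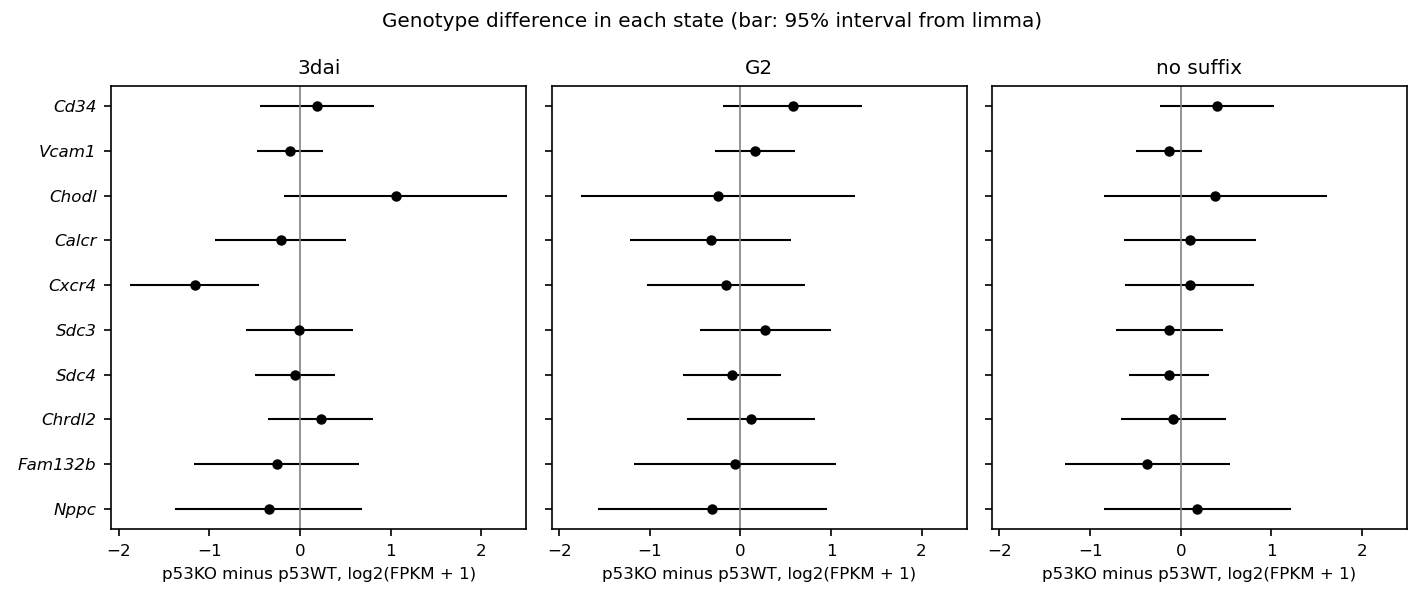
Difference p53KO minus p53WT of each gene on the log2(FPKM + 1) scale in 3dai, in G2 and with no suffix; points are the estimates and bars the 95% intervals from limma. All intervals include 0 except that of Cxcr4 in 3dai, whose adjusted p over all genes is 0.280.

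Libraries of a group differed from each other in several of the 10 genes at once. In p53KO, replicate 3 was the highest of its group in 8 of the 10 and the lowest in Vcam1 and Fam132b, and its Nppc level of 437 FPKM stood beside 162 and 188. In p53KO_G2, replicate 1 was the lower library in 8 of the 10 and the higher in Cd34 and Sdc3, and its dividing-cell sum was 433 FPKM against 275 in replicate 2. In p53KO_3dai, replicate 1 was the highest in 6 of the 10, with Fam132b at 25.3 FPKM beside 6.31 and 4.94. Without that library the Fam132b difference between p53KO_3dai and p53KO was -7.63 in place of -6.96, and that of Chodl -7.16 in place of -6.57, which was -5.68 without p53KO_3dai replicate 3. Without p53KO replicate 3 the Nppc difference was -7.45 in place of -7.89, and for G2 it was -3.83 in place of -4.27. The Nppc difference in G2 moved to -3.32 without p53KO_G2 replicate 1 and to -5.22 without replicate 2.

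**Figure D4:**
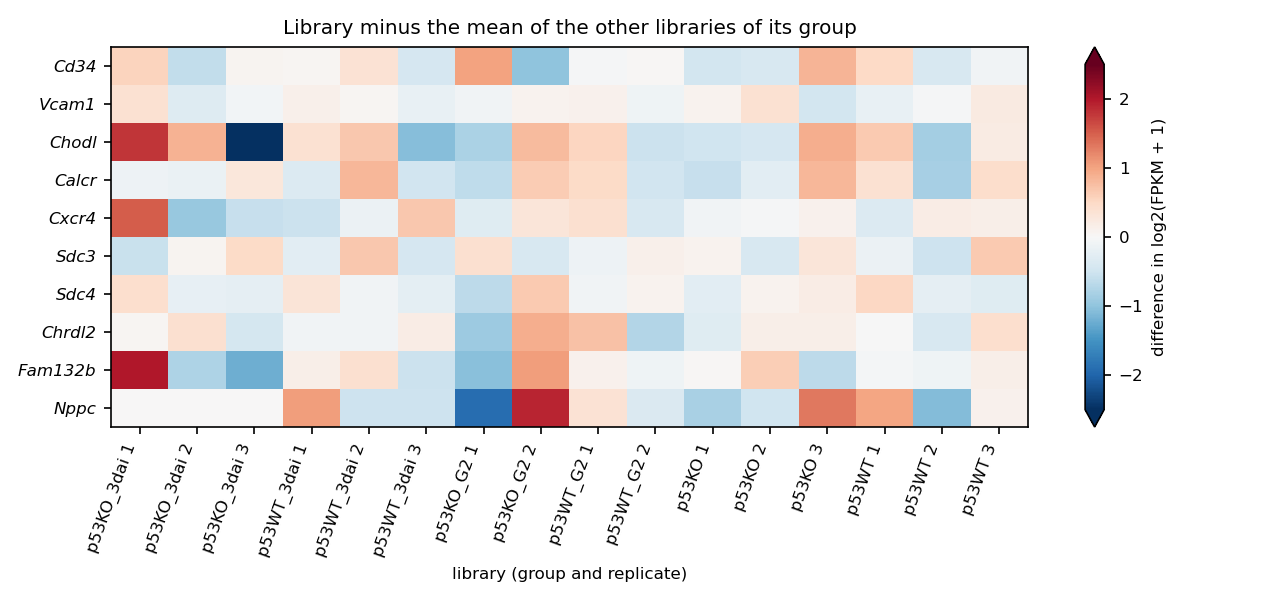
Each library minus the mean of the other libraries of its group, in log2(FPKM + 1), with 1 row per gene and 1 column per library; red is higher and blue lower than the rest of the group. The columns of p53KO replicate 3, p53KO_G2 replicate 1 and p53KO_3dai replicate 1 show shifts in several genes at once.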

How the data were processed

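RNA of 16 libraries in 6 groups was measured by RNA-seq of total RNA with a directional kit, per the labels' protocols. The authors deposited FPKM values per gene, and the submitters' processing notes name STAR, Cufflinks, Cuffdiff and mm10, with versions not given in the sources used here; FPKM divides by library total and gene length, so one abundant gene lowers all others. Depth cannot be recovered from the files, and no count test was possible. Rows with the symbol of a gene were taken as deposited. Values were tested as log2(FPKM + 1) with limma 3.58.1 in R 4.3.3 over the 12954 genes with at least 1 FPKM in at least 2 libraries, in one model of the 6 groups, with p-values adjusted by Benjamini-Hochberg over all genes and a limit of 0.05; the script was tested on simulated data. The 10 genes and all lists of partners and markers were chosen with earlier results of these data known. Partner genes named are the 3 of each list with the largest absolute difference between p53WT_3dai and p53WT among those with a mean of at least 5 FPKM in a group. Markers at 0 and the largest gene of a marker sum were named after their values were seen. The fit was repeated with a pseudocount of 0.1, without the filter, with a mean of at least 5 FPKM, median-of-ratios scaling, quantile normalization, only the groups compared, a replicate block and each library left out. Promoter windows are RefSeq's for GRCm38.p6. Of the genes most like Chodl and Cxcr4, 1 each is not reported here.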

Additional observations from a re-analysis of the deposited data

How the results depend on the processing

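Genotype results were followed for all 10 genes in the mean over the 3 states. In each other comparison only the genes with the lowest and the highest difference were followed, which makes 20 results. Differences near 0 within a state, such as that of Sdc3 in 3dai (-0.0073), are therefore not counted. Over the alternatives and left-out libraries, 355 of 366 values of the 20 results kept their direction and their side of the threshold. Of the rest, 9 changed sign and 2 passed the threshold, both for Cxcr4 without p53KO_3dai replicate 1. Of the 10 genes, 0 were called in 3dai and 0 in its interaction, and 0 to 1 when a library was left out. Among these 20, the signs that turned belong to means over the 3 states near 0: when a library was left out Vcam1 ran from -0.069 to 0.026, Sdc3 from -0.021 to 0.12, Sdc4 from -0.20 to 0.019, Chrdl2 from -0.064 to 0.24 and Nppc from -0.47 to 0.16. Of 340 values of the 40 descriptive differences between states, 272 moved by less than 1 SD, 65 moved further and 3 changed sign, all for Vcam1 in p53KO_G2 (-0.37 with median-of-ratios scaling, -0.0053 with quantile normalization and -0.090 to 0.19 when a library was left out).

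Counts of all genes called between genotypes were small and moved with most settings. With no suffix 1 gene was called, and 5 with a pseudocount of 0.1, 4 with no filter and 0 with only the groups compared. In 3dai 11 were called, and 17 with the pseudocount, 7 with the replicate block, 1 with only the groups compared and 2 to 512 when a library was left out, the 512 without p53KO_3dai replicate 1. In G2 9 were called, and 22 with no filter, 4 with a mean of at least 5 FPKM, 5 with the replicate block, 0 with only the groups compared and 3 to 6 when a library was left out. Over the 3 states 5 were called, and 17 with no filter and 4 to 60 when a library was left out. For the interaction in 3dai 0 were called (777 at an unadjusted limma p under 0.05), and 1 with the pseudocount, 1 with no filter and 0 to 146 when a library was left out. For that in G2 3 were called, and 5 with the pseudocount, 16 with no filter, 1 with the higher minimum, 5 with only the groups compared and 1 to 3 when a library was left out. Calls between G2 and no suffix were 3830 in p53KO, and 2112 with only the groups compared and 2095 to 3702 when a library was left out, and 3566 in p53WT, and 1826 to 3199 when a library was left out. The causes were not tested.

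Replicate numbers did not pair the libraries: deviations from group means of same-numbered libraries correlated with a median r of -0.00079 (36 pairs, 1 of them over 0.1), so the replicate block is given for completeness, and with it 0 of the 10 genes were called. Values near 0 FPKM, as for Calcr, Chrdl2 and Nppc in 3dai, rest on an unknown number of reads.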

Other observations

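Wider lists of stem cell transcripts were followed beside the 10 genes. Of 24 other surface genes of muscle stem cells, 18 were called lower and 3 higher by limma in p53KO_3dai against p53KO, and 14 and 3 in p53WT_3dai against p53WT (medians -1.27 and -1.14), while in G2 4 were called lower and 3 higher in p53KO_G2 and 3 and 5 in p53WT_G2. The G2 counts depended on the scaling: median-of-ratios scaling gave 9 lower and 2 higher in p53KO_G2 and 7 and 3 in p53WT_G2, and quantile normalization 8 and 2 and 6 and 4. Osmr, a receptor subunit for oncostatin M, a cytokine that holds mouse muscle stem cells quiescent, fell to 2.97 ± 4.43 FPKM in p53KO_3dai and 2.66 ± 1.51 in p53WT_3dai, against 86.1 ± 31.9 in p53KO and 107.7 ± 26.3 in p53WT (SD, n = 3 each; log2 -5.01 and -4.94, limma adjusted p = 4e-06 and 4.58e-06). Notch3, a Notch receptor, fell (log2 -3.60 in p53KO_3dai and -3.66 in p53WT_3dai, limma adjusted p = 8.37e-08 and 7.61e-08). Tenm4, a teneurin of the plasma membrane, fell (log2 -3.61 in p53KO_3dai and -3.65 in p53WT_3dai, limma adjusted p = 2.86e-07 and 2.85e-07).

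Of 22 other transcripts known from quiescent muscle stem cells, 18 were called lower and 0 higher in p53KO_3dai, and 15 and 1 in p53WT_3dai (medians -2.16 and -1.56), and in G2 8 were called lower and 5 higher in p53KO_G2 and 2 and 3 in p53WT_G2. Here too the G2 counts moved, to 12 lower and 2 higher in p53KO_G2 and 6 and 3 in p53WT_G2 with median-of-ratios scaling, and to 12 and 3 and 6 and 3 with quantile normalization. Gpx3, a secreted glutathione peroxidase, fell to 44.5 ± 29.6 FPKM in p53KO_3dai and 29.1 ± 1.2 in p53WT_3dai, against 3171 ± 165 in p53KO and 3396 ± 367 in p53WT (SD, n = 3 each; log2 -6.31 and -6.81, limma adjusted p = 6.65e-10 and 3.41e-10). Btg2, an antiproliferative gene, fell (log2 -7.59 in p53KO_3dai and -6.64 in p53WT_3dai, limma adjusted p = 1.78e-08 and 7.68e-08), and Rgs5, a regulator of G protein signalling also listed with pericytes, fell (log2 -4.21 in p53KO_3dai and -4.39 in p53WT_3dai, limma adjusted p = 0.000186 and 0.000129). These lists were chosen with earlier results of these data known.

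By position, 4 of the 10 genes, Cd34, Cxcr4, Fam132b and Nppc, lie on chromosome 1, which holds 5.55% of the genes in the files. This was noticed after the positions were read and was not tested.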
